A study of Sus scrofa with 12 samples.

Results

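DPPA2 and 9 transcription factors or RNA-binding proteins of the pluripotency network (DPPA5, POU5F1, NANOG, SOX2, SALL4, KLF4, KLF5, KLF17 and PRDM14) were followed in SMART-seq libraries of porcine (Sus scrofa) embryos made by in vitro fertilisation. They were chosen by gene symbol, with earlier results of these data known. The deposited count table held 29329 genes, and 9 of the 10 chosen symbols had a row in it. POU5F1, which encodes the homeodomain factor OCT4, had no row under that symbol and was not analysed here. A filter on low counts left 17995 genes for testing, among them 8 of the 10. PRDM14 was the member with a row that did not pass.

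There were 12 libraries, 3 in each of the control groups (con-2c and con-4c) and 3 in each of the si groups (si-2c and si-4c). The con embryos are labelled blank control and the si embryos si-CCNB2, a short interfering RNA against the mitotic cyclin CCNB2 that the study microinjected. The methods speak of the control embryos as normal and also as the NC group. They describe NC groups as injected, while the label says blank control. It was thus not clear whether these controls had been injected, and a difference between si and con can include the injection. The 2c and 4c of the group names are those of the library titles. In all 12 libraries the tissue label names the other stage, so the titles are used as names only, and a change of label would turn every difference between stages around. Each library was made from a pool of several whole embryos. SMART-seq copies polyadenylated RNA with an oligo(dT) primer and amplifies it. A lower level of a gene can thus mean fewer expressing cells, less RNA per cell or less of that RNA polyadenylated. As levels are relative to the library total, it can also mean more of other RNAs, and these cannot be told apart. P-values measure the spread between these pools, which may be technical in part.

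Pluripotency factors hold the early embryonic cells in a state from which every tissue of the body can arise. OCT4, SOX2 and NANOG bind enhancers together and regulate one another, while SALL4 and the Krüppel-like factors act on many of the same targets. DPPA2 is a chromatin protein that works with its partner DPPA4 at promoters of genes switched on when the embryonic genome is activated, and it is widely used as a marker of that step in the pig. Mammalian oocytes also store maternal RNA of some of these genes, which is degraded during cleavage.

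The designed sequences that bear on these genes are those of the PCR assay with which the study measures DPPA2 and of the interfering RNAs against CCNB2, all written 5′ to 3′ as the study lists them. They are shown since DPPA2 is the marker gene here and CCNB2 the gene targeted. Both interfering RNAs are listed, and which of them was injected into the embryos of these libraries is not given in the sources used here.
DPPA2 forward primer: ccgttcctgcttctgttgagacc
DPPA2 reverse primer: ggcgaacccaaccttctgtatctg
Si-CCNB2-2: gcuuauaccaguucccaaa
Si-CCNB2-1: gcagguccacuccaaguuu

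Levels are given as CPM, counts relative to the library total after TMM scaling, which corrects for differences in composition between libraries. CPM are not divided by gene length, so they compare a gene between libraries and not 1 gene with another. A gene was called when the quasi-likelihood test of edgeR gave a Benjamini-Hochberg adjusted p below 0.05 over all genes tested with a log2 fold change of 1 or more in either direction, here the fold limit. Library totals ran from 27785233 to 39510908 counts, and con-4c was the shallowest group at 27785233 to 28771777. The targeted gene followed the treatment label: CCNB2 (ENSSSCG00000004588, chr1:112907047-112942218) had 428.8 to 510.4 CPM in the 6 con libraries and 17.8 to 46.9 CPM in the 6 si libraries. Its log2 fold change was -4.36 for si-2c against con-2c and -3.48 for si-4c against con-4c, both called.

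The source of the RNA was checked with marker lists. Of 12 oocyte and cleavage embryo markers, 10 were in the table, and their summed level was 23330 to 28370 CPM in con-2c, 12280 to 12840 in con-4c, 11120 to 13640 in si-2c and 25950 to 28190 in si-4c. Most of that sum was BTG4, a deadenylase adaptor needed for the decay of maternal mRNA, and the other 9 summed to 7894 to 8241 CPM for con-2c, 4731 to 5129 for con-4c, 4143 to 4773 for si-2c and 7168 to 7458 for si-4c. In con-4c against con-2c 3 of the 10 were called lower (BTG4, ZP4 and OOEP, a protein of the subcortical maternal complex) and none higher, beside 3.25% and 14.4% of all genes, and 1 was called with library totals in place of TMM scaling. BMP15, an oocyte growth factor named after its values were seen, had 887.3 CPM in con-2c and 984.7 in con-4c. BTG4 had 18570 ± 2719 CPM (SD, n = 3) in con-2c against 7682 ± 462.5 in con-4c, and OOEP had 1338 ± 88.0 and 370.9 ± 9.58. Of 13 cumulus cell markers 10 were in the table, with summed levels of 294.8 to 372.5 CPM in con-2c, 179 to 191 in con-4c, 173 to 201 in si-2c and 296 to 304.5 in si-4c. Nearly all of that sum was VCAN, and the other 9 summed to 5.15 to 7.66 CPM over all libraries, with HAS2 and CYP11A1 at 0 in con-2c, si-2c and si-4c. Of 9 sperm markers only AKAP4 and SPATA18 were in the table, at 0 in every con-2c and si-4c library, 0 to 0.658 CPM in con-4c and 0.39 to 1.35 CPM in si-2c. These sums move with the groups in which the members below are high or low, and their part in the results was not tested.

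DPPA2 (ENSSSCG00000031524, chr13:150186833-150200612) was detected in every library. Replicates 1 to 3 had 37.6, 36.2 and 36.6 CPM in con-2c and 159, 184 and 171 CPM in con-4c. They had 81.6, 93.2 and 87.7 CPM in si-2c and 49.2, 35.1 and 35.1 CPM in si-4c. The con-4c libraries were the highest and the si-2c libraries stood between them and the rest without overlap, while con-2c and si-4c overlapped. DPPA2 was higher in con-4c than in con-2c by a log2 fold change of 2.22 (SE 0.12, edgeR adjusted p 2.28e-10) and higher in si-2c than in con-2c by 1.25 (SE 0.12, adjusted p 4.12e-07). Relative to con-4c it was lower in si-4c by -2.11 (SE 0.12, edgeR adjusted p 3.93e-10), and relative to si-2c by -1.14 (SE 0.12, adjusted p 1.15e-06). Within the si embryos the sign of the difference between the titles was thus the opposite of that in the con embryos.

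Between the groups that carry different titles, DPPA2 of si-2c was 51.1% of the con-4c mean, and its libraries lay between 47.7% and 54.4%. The log2 fold change of -0.97 (SE 0.11, edgeR adjusted p 3.57e-05) passed the p limit but not the fold limit, and it became a call without replicate 1 of con-4c (-1.02) or without replicate 2 of si-2c (-1.01). DPPA2 of si-4c was 108.1% of the con-2c mean, a log2 fold change of 0.11 (SE 0.12, edgeR adjusted p 0.834). The sign of that difference rested on replicate 1 of si-4c, the highest of its group, and without it the value was -0.07.

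DPPA5 (ENSSSCG00000004283, chr1:52986462-52987596), an RNA-binding protein with a KH domain found in pluripotent and germ cells, was higher in con-2c than in con-4c, and its si-4c level was above that of si-2c. Replicates 1 to 3 had 4754, 4996 and 4030.0 CPM in con-2c and 2710.0, 3016 and 2900.0 CPM in con-4c. They had 2332, 2640.0 and 1959 CPM in si-2c and 4021, 3876 and 3723 CPM in si-4c. All con-2c libraries were above all si-4c libraries, which were above all con-4c libraries, and si-2c was the lowest group. No difference of DPPA5 between 2 groups was called. Its log2 fold change was -0.68 (SE 0.10, edgeR adjusted p 5.56e-05) in con-4c against con-2c, 0.43 (SE 0.10, adjusted p 0.00306) for si-4c against con-4c and 0.75 (SE 0.10, adjusted p 3.03e-05) for si-4c against si-2c. It was -0.99 (SE 0.10, edgeR adjusted p 1.45e-06) for si-2c against con-2c, just inside the fold limit. That last value became a call without replicate 3 of con-2c (-1.08), without replicate 1 of si-2c (-1.0003) or without replicate 2 of si-2c (-1.10). With library totals in place of TMM these values were -0.40, 0.17, 0.37 and -0.59 in that order, and that of si-4c against con-4c no longer passed the p limit.

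NANOG (ENSSSCG00000040403) encodes the homeodomain factor that marks the epiblast, the founder of the body. RefSeq places the symbol at chr1:169064134-169065292 and at chr5:62931642-62939086, and which of these the row counts was not settled, so its level is uncertain to that extent. No read was counted in any con-2c library. Replicates 1 to 3 had 60.1, 69.1 and 60.8 CPM in con-4c and 25.4, 26.7 and 24.9 CPM in si-2c. In si-4c, replicates 1 and 2 had 0 counts and replicate 3 had 2 counts. NANOG thus separated con-4c and si-2c from the other groups, and si-2c from con-4c, with no library in between.

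A count of 0 allows up to 3 counts, so NANOG was at least 686-fold higher in con-4c than in con-2c (edgeR adjusted p 3.96e-13) and at least 278-fold higher in si-2c than in con-2c (adjusted p 4.32e-12). The ratio of con-4c to si-4c was 3210 with a counting interval of 888 to 26510 at a confidence level of 0.95, and that of si-2c to si-4c was 1299 with an interval of 359 to 10730 (edgeR adjusted p 3.25e-13 and 2.71e-12). Such intervals cover counting error only, since amplified reads without molecular identifiers are not independent molecules. Without replicate 3 of si-4c, every si-4c library left was at 0, and both calls held. In si-2c NANOG was 40.5% of its con-4c mean (39.4% to 42.2% over the libraries), a log2 fold change of -1.30 (SE 0.13, edgeR adjusted p 2.35e-05), which was called. For si-4c against con-2c no fold is given, as both groups were at or under 3 counts per library.

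SOX2 (ENSSSCG00000062993, chr13:119668476-119669435), an HMG-box factor that binds DNA with OCT4, had few reads in every library. Counts in replicates 1 to 3 were 59, 44 and 47 for con-4c, 91, 63 and 38 for si-2c, 19, 8 and 6 for si-4c, and 0, 0 and 3 for con-2c. The mean level was 1.64 ± 0.262 CPM (SD, n = 3) for con-4c, 1.57 ± 0.708 for si-2c and 0.327 ± 0.212 for si-4c. The con-4c and si-2c libraries overlapped and both groups were above all si-4c libraries, which were above all con-2c libraries. The ratio of con-4c to con-2c was 53.4 (counting interval 17.9 to 262, edgeR adjusted p 7.57e-05) and that of si-2c to con-2c was 49.98 (16.9 to 245, adjusted p 1.20e-04). All 3 con-2c reads were in replicate 3, and without it the fitted log2 fold changes went to 8.82 (edgeR adjusted p 4.81e-05) and 8.79 (adjusted p 7.10e-05), which are no bounds since con-2c then had no read.

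Relative to con-4c SOX2 was lower in si-4c by a log2 fold change of -2.32 (SE 0.66, edgeR adjusted p 0.0107), and relative to si-2c by -2.25 (SE 0.66, adjusted p 0.0158). The call against si-2c was lost without replicate 1 of si-2c (edgeR adjusted p 0.0843), without replicate 2 of si-4c (0.0627) or without replicate 3 of si-4c (0.0642). Its 33 counts in si-4c against 3 in con-2c gave a ratio of 10.6 (3.32 to 54.0) that did not pass (edgeR adjusted p 0.143). All 3 con-2c counts were in replicate 3, and without that library the comparison passed with an adjusted p of 0.0433 by edgeR. The difference between si-2c and con-4c was a log2 fold change of -0.06 (SE 0.60, edgeR adjusted p 0.981), an error too wide to call the levels alike.

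SALL4 (ENSSSCG00000053517, chr17:53082610-53103023), a zinc-finger factor that binds OCT4 and is needed for growth of the inner cell mass, was present in every library and called in no comparison between 2 groups. Replicates 1 to 3 had 2.42, 3.77 and 2.80 CPM in con-2c and 5.10, 3.88 and 5.04 CPM in con-4c. They had 3.48, 4.63 and 3.52 CPM in si-2c and 3.09, 3.64 and 2.81 CPM in si-4c. All con-4c libraries were above all con-2c and all si-4c libraries, while si-2c overlapped with every other group. The log2 fold change was 0.64 (SE 0.24, edgeR adjusted p 0.0472) in con-4c against con-2c and -0.55 (SE 0.24, adjusted p 0.0812) for si-4c against con-4c. It was 0.08 (SE 0.24, edgeR adjusted p 0.987) for si-4c against con-2c, with a sign that turned without replicate 1 of con-2c (-0.05) or without replicate 2 of si-4c (-0.03).

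PRDM14 (ENSSSCG00000006195, chr4:65273988-65295362), a PR-domain factor of the germ line and of naive pluripotency, was at the limit of detection. It had 3 counts in replicate 3 of con-2c, in replicate 1 of con-4c and in replicate 3 of si-2c, and 0 counts in the other 9 libraries. It was not tested, and a difference between groups was not detectable at this depth.

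KLF17 (ENSSSCG00000024191, chr6:167176834-167188418), a zinc-finger factor of the Krüppel-like family found in the early embryo, nearly followed an on and off pattern. Counts in con-2c were 0, 11 and 6 and those in si-4c 0, 0 and 5 in replicates 1 to 3. Levels were 40.8, 39.1 and 39.9 CPM in con-4c and 22.2, 16.9 and 19.2 CPM in si-2c. All 6 libraries of con-4c and si-2c were thus far above all 6 of the other groups, and con-4c was above si-2c without overlap. KLF17 was higher in con-4c than in con-2c by a log2 fold change of 7.81 (SE 0.39, edgeR adjusted p 1.05e-10) and higher in si-2c than in con-2c by 6.77 (SE 0.39, adjusted p 1.35e-09). Relative to con-4c it was lower in si-4c by -9.56 (SE 0.46, edgeR adjusted p 5.98e-11), and relative to si-2c by -8.52 (SE 0.47, adjusted p 6.21e-10). The size of such values rests on a handful of reads: without replicate 3 of si-4c they were -13.43 and -12.40, and without replicate 2 of con-2c the values against con-2c were 8.68 and 7.64.

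In si-2c KLF17 was 48.6% of its con-4c mean (42.2% to 55.5%), a called log2 fold change of -1.04 (SE 0.24, edgeR adjusted p 0.0119). That call was lost in several leave-one-out fits: without replicate 1, 2 or 3 of con-4c (edgeR adjusted p 0.0618, 0.0541 and 0.0554) and without replicate 2 of si-2c (-0.95, adjusted p 0.0697). For si-4c against con-2c the log2 fold change of KLF17 was -1.74 (SE 0.94, edgeR adjusted p 0.507), from 5 counts against 17. It was -0.88 without replicate 2 of con-2c and -5.62 without replicate 3 of si-4c, the library that holds all 5.

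KLF4 (ENSSSCG00000005437, chr1:248604817-248609574), a Krüppel-like factor used to reprogramme somatic cells to pluripotency, was detected in every library. Replicates 1 to 3 had 6.17, 4.43 and 5.78 CPM in con-2c and 37.1, 33.5 and 32.1 CPM in con-4c. They had 20.4, 14.3 and 16.4 CPM in si-2c and 5.49, 5.70 and 7.11 CPM in si-4c. The order was that of DPPA2, with con-4c highest, si-2c between, and con-2c and si-4c overlapping at the bottom. KLF4 was higher in con-4c than in con-2c by a log2 fold change of 2.65 (SE 0.17, edgeR adjusted p 2.15e-09) and higher in si-2c than in con-2c by 1.64 (SE 0.16, adjusted p 1.05e-06). Relative to con-4c it was lower in si-4c by -2.49 (SE 0.17, edgeR adjusted p 4.08e-09), and relative to si-2c by -1.48 (SE 0.16, adjusted p 2.98e-06).

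KLF4 of si-2c was 49.8% of the con-4c mean (41.8% to 59.6%), a log2 fold change of -1.01 (SE 0.16, edgeR adjusted p 5.42e-04) that was called by a narrow margin. It fell under the fold limit without replicate 3 of con-2c (-0.97), replicate 1 of con-4c (-0.94), replicate 2 of si-2c (-0.89) or replicate 3 of si-2c (-0.98). Over 20 settings, the main one included, the call was lost in 6, among them these fits and library totals (-0.88). KLF4 of si-4c was 111.7% of the con-2c mean (log2 fold change 0.16, SE 0.17, edgeR adjusted p 0.841).

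KLF5 (ENSSSCG00000035101, chr11:45370009-45386673), a family member that acts in both the inner cell mass and the trophectoderm, varied less than KLF4 and KLF17 did. Replicates 1 to 3 had 6.46, 5.74 and 4.30 CPM in con-2c and 9.74, 12.4 and 9.36 CPM in con-4c. They had 10.1, 9.19 and 6.91 CPM in si-2c and 8.34, 6.36 and 9.71 CPM in si-4c. All con-2c libraries were below all con-4c and all si-2c libraries, and the other groups overlapped. The log2 fold change was 0.93 (SE 0.21, edgeR adjusted p 0.00219) in con-4c against con-2c and 0.67 (SE 0.21, adjusted p 0.024) for si-2c against con-2c, both under the fold limit. The former became a call without replicate 1 of con-2c (1.06) or replicate 3 of con-4c (1.01), with library totals in place of TMM (1.21) and with the filter at a mean of 10 CPM (1.03). The latter became a call with library totals (1.07), and its p missed the limit in 4 of the 12 fits without 1 library (highest edgeR adjusted p 0.111). In si-4c KLF5 was -0.37 against con-4c (SE 0.21, edgeR adjusted p 0.184) and 0.56 against con-2c (SE 0.21, adjusted p 0.301) on the log2 scale. With library totals the value against con-4c was -0.62 and passed the p limit, still under the fold limit.

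**Figure D1:**
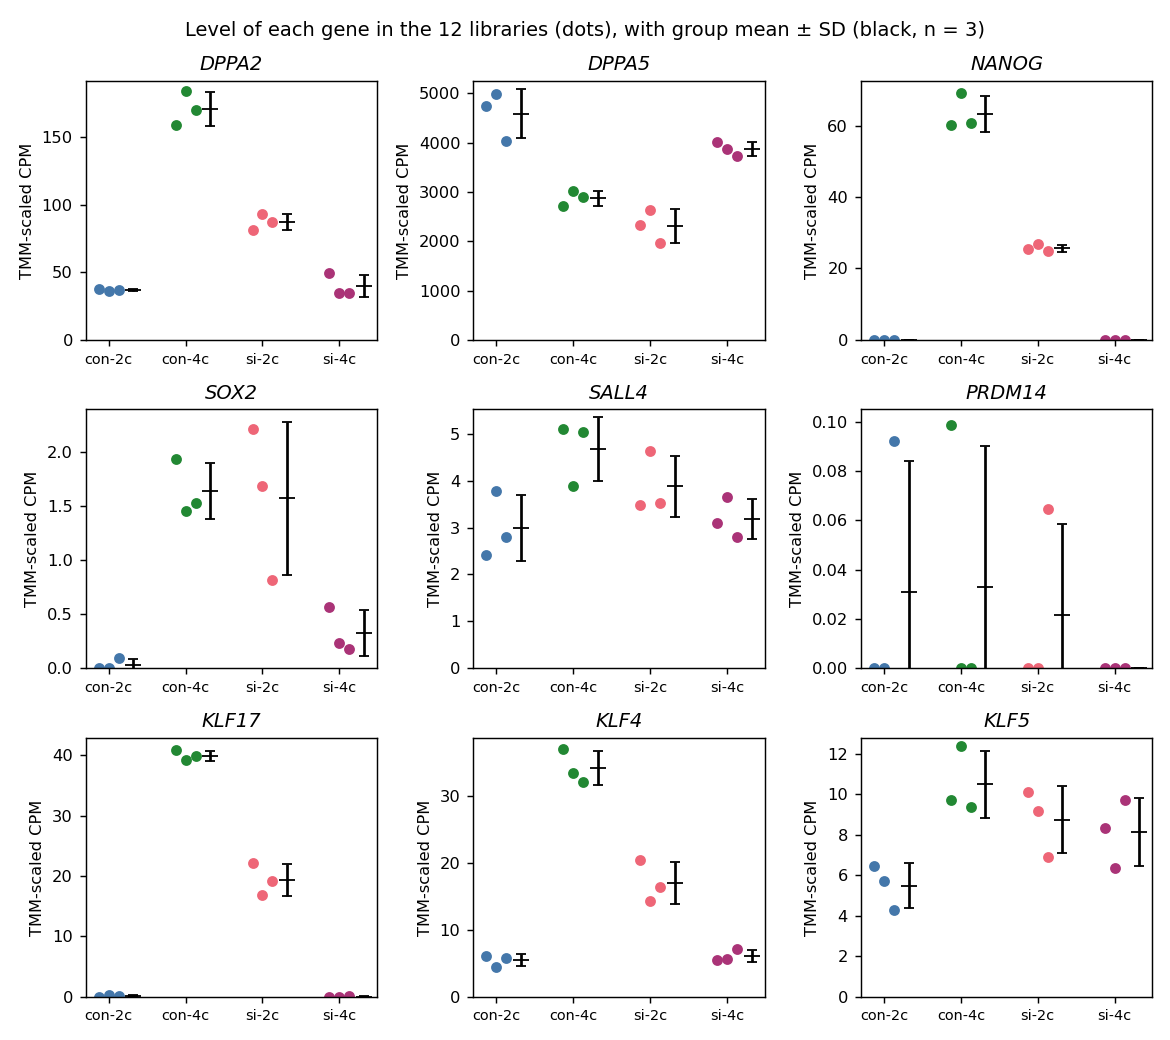
Level of each member with a row in the table, as TMM-scaled CPM on a linear axis from 0, in the 3 libraries of each group (dots) with the group mean ± SD (black). DPPA2, NANOG, KLF17 and KLF4 are highest in con-4c and next highest in si-2c, with con-2c and si-4c lowest, while DPPA5 has its lowest libraries in si-2c and con-4c.

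To ask how the control embryos of the 2 titles differ, con-4c was compared with con-2c over the whole list. DPPA2, NANOG, SOX2, KLF4 and KLF17 were called higher, 5 of the 8 members tested, and none was called lower. Of all 17995 genes tested 14.4% were called higher and 3.25% lower. SALL4, KLF5 and DPPA5 passed the p limit with changes under the fold limit, so all 8 passed it, as did 35.8% of all genes. SALL4 was at the limit (edgeR adjusted p 0.0472): its p missed it in 10 of the 12 fits without 1 library (0.0248 to 0.175 over the 12), with a replicate block (0.051), with only the groups compared (0.0641) and with no filter on low counts (0.102). The groups did not overlap for all 8 members, against 48.6% of all genes. The median log2 fold change was 2.43 over the members tested and 0.11 over all genes. PRDM14 and POU5F1 are outside these counts, and a filter that admits a gene through the group where it is high favours members that differ.

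Next, si and con libraries of the same title were compared. Such a difference can include the injection. Were the titles of only the si or only the con embryos exchanged, it would also include the stage, and these cannot be told apart. For si-2c against con-2c the 5 members called were DPPA2, NANOG, SOX2, KLF4 and KLF17, all higher in si-2c, while 10.7% of all genes were called higher and 1.8% lower. The groups did not overlap for 7 of the 8, and for 41.7% of all genes. The comparison of si-4c with con-4c called those 5 genes lower, with 15.8% of all genes called lower and 3.12% higher, and 7 of the 8 did not overlap, against 50.9% of all genes. Within the si embryos, si-4c against si-2c again called DPPA2, NANOG, SOX2, KLF4 and KLF17 lower, beside 11.9% of all genes called lower and 1.47% higher, and 6 of the 8 did not overlap, against 42.8% of all genes. These comparisons share groups with one another and with con-4c against con-2c, so their calls are not independent of each other. Scaling by library totals moved the median of all genes from 0.11 to 0.38 in con-4c against con-2c, from 0.12 to 0.52 for si-2c against con-2c, from -0.11 to -0.37 in si-4c against con-4c and from -0.13 to -0.51 in si-4c against si-2c. Under it the shares of all genes called higher and lower were 17.9% and 1.27% for con-4c against con-2c, 16.8% and 0.322% for si-2c against con-2c, 1.28% and 18.7% for si-4c against con-4c, and 0.278% and 17.2% for si-4c against si-2c. The 5 named members kept their calls in these 4 comparisons under that scaling, and KLF5 joined them in con-4c and si-2c against con-2c.

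**Figure D2:**
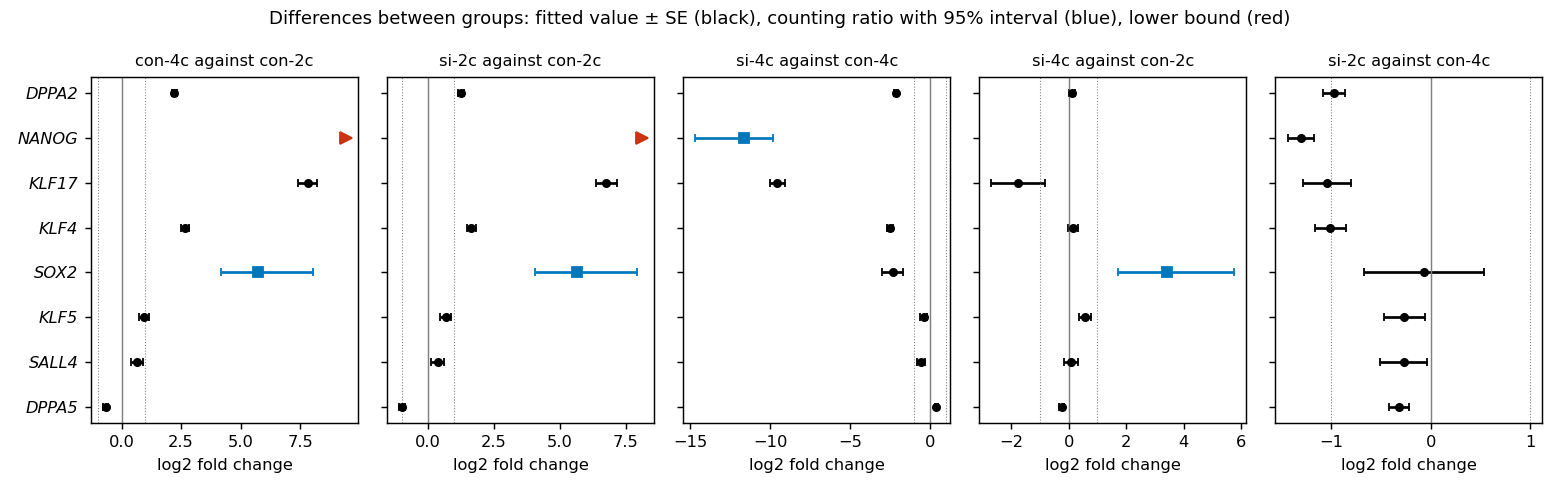
Differences of the 8 tested members in 5 comparisons on a log2 axis whose range differs between panels, as fitted value ± SE (black), counting ratio with its 0.95 interval where a group held 1 to 3 reads (blue) or lower bound where a group held none (red). The dotted lines mark the fold limit of 1, NANOG has no value for si-4c against con-2c, and in that panel no member was called.

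The crossed comparisons ask how near the si groups were to the con group of the other title. In si-4c against con-2c none of the 8 members was called by edgeR, and none by DESeq2. An unadjusted p below 0.05 was reached by 3 of them, DPPA5, SOX2 and KLF5. Only 0.333% of all genes were called here. The groups did not overlap for DPPA5 and SOX2, 2 of the 8 members, and for 14.1% of all genes. DPPA5 of si-4c was 84.3% of the con-2c mean (81.0% to 87.5%), a log2 fold change of -0.25 (SE 0.10, edgeR adjusted p 0.358). In si-2c against con-4c 3 of the 8, NANOG, KLF4 and KLF17, were called lower, with 1.63% of all genes called lower and 0.161% higher. Library totals left NANOG as the member called there, with KLF4 at -0.88 and KLF17 at -0.91, while 1.19% of all genes were called lower and 0.333% higher. The groups did not overlap for 5 of the 8, against 27.1% of all genes.

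As a share of the con-4c mean, the si-2c means of DPPA2, NANOG, KLF4 and KLF17 lay between 40.5% and 51.1%. Those of DPPA5, SALL4, KLF5 and SOX2 lay between 80.4% and 95.7%, and the single si-2c libraries of SOX2 ran from 49.6% to 135%. No test was made between members.

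**Figure D3:**
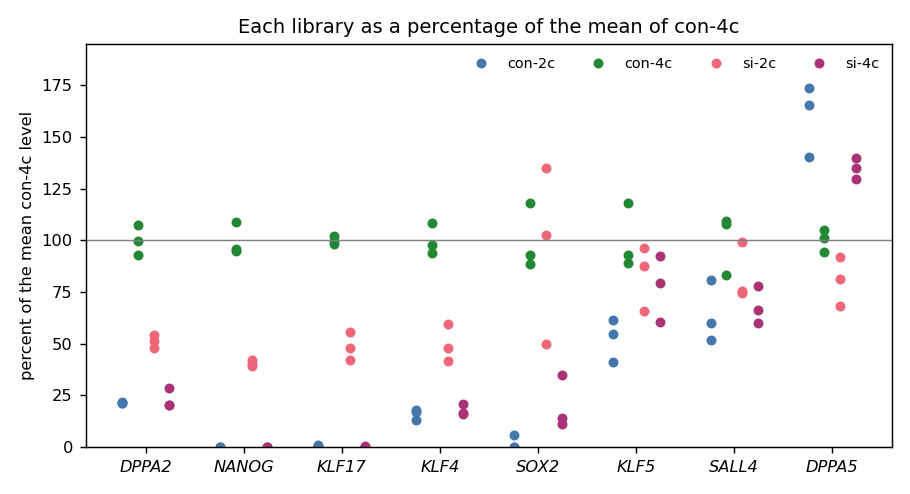
Each library (dots, coloured by group) as a percentage of the mean con-4c level of the same gene, on a linear axis. The si-2c libraries of DPPA2, NANOG, KLF17 and KLF4 lie between 39.4% and 59.6%, and those of DPPA5 between 68.2% and 91.8%.

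The interaction asks whether the difference between the titles was the same in si and con embryos, by taking the 4c minus 2c difference of con from the 4c minus 2c difference of si. It was called for 7 of the 8 members. Those lower were DPPA2, NANOG, SOX2, KLF4, KLF5 and KLF17, and the member higher was DPPA5, against 22.5% of all genes called lower and 9.87% higher. DPPA2 had an interaction of -3.36 (SE 0.16, edgeR adjusted p 4.83e-11) and KLF4 of -4.13 (SE 0.23, adjusted p 2.92e-10) on the log2 scale. SALL4, at -0.92 (SE 0.34, edgeR adjusted p 0.0342), was the member under the fold limit. Its p missed the limit in 7 of the 12 fits without 1 library, and it was called without replicate 2 of con-2c (-1.12), of con-4c (-1.04) or of si-4c (-1.03). KLF5, at -1.04 (SE 0.29, edgeR adjusted p 0.00849), lost its call without replicate 3 of con-2c (-0.88), replicate 2 of con-4c (-0.89), replicate 1 (-0.91) or 2 (-0.99) of si-2c, or replicate 2 of si-4c (-0.88). With library totals DPPA5 lost its call (0.77) and SALL4 gained it (-1.58), and 33.6% of all genes were called lower and 3.19% higher.

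DPPA2 was set beside its family and partners, a list of 7 genes of which 5 were tested. In con-4c against con-2c, DPPA2 and DPPA4 were called higher and none lower, beside 14.4% and 3.25% of all genes, and the median log2 fold change of the list was 0.37. That median was 0.24 without replicate 1 of con-4c and 0.64 with library totals. DPPA4, the partner of DPPA2, was singled out after its values were seen. It had 8.26, 5.14 and 9.66 CPM in the con-4c libraries, 3.31, 4.82 and 4.25 in those of si-2c, 2.64, 3.09 and 2.06 in those of con-2c, and 3.87, 2.55 and 2.42 in those of si-4c. The con-4c libraries were above all others. DPPA4 was higher in con-4c than in con-2c by a log2 fold change of 1.56 (SE 0.28, edgeR adjusted p 2.76e-04), and relative to con-4c it was lower in si-4c by -1.38 (SE 0.27, adjusted p 7.73e-04). Against con-2c its value in si-2c was 0.67 (SE 0.28, edgeR adjusted p 0.083), which did not pass. TRIM28, a corepressor that binds zinc-finger proteins, had 9.48 ± 1.07 CPM in con-2c and 12.2 ± 1.82 in con-4c (SD, n = 3), and CBFA2T2, a corepressor that binds PRDM14 and OCT4, had 39.5 ± 4.39 and 44.4 ± 4.44. Neither was called in any comparison. DPPA3 was not analysed here.

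Of 24 KLF and SP factors, zinc-finger proteins that bind GC-rich DNA, 20 were tested, and 8 (40.0%) were called higher and none lower in con-4c against con-2c, beside 14.4% and 3.25% of all genes. Besides KLF4 and KLF17 these were KLF8, KLF9, KLF10, SP1, SP4 and SP5. KLF10, a factor induced by TGF-beta, had 26.9, 23.7 and 30.4 CPM in the con-4c libraries, 12.5, 11.01 and 8.24 in those of si-2c, 0.414, 0.802 and 0.492 in those of con-2c, and 1.53, 0.665 and 0.896 in those of si-4c. As for KLF17, all its con-4c libraries were above all si-2c libraries and both groups above the rest, and its log2 fold change was 5.55 (SE 0.30, edgeR adjusted p 2.28e-10) in con-4c against con-2c, 4.20 (SE 0.29, adjusted p 1.23e-08) for si-2c against con-2c and -4.71 (SE 0.28, adjusted p 6.99e-10) for si-4c against con-4c. KLF9, a factor that responds to hormones, had 10.8, 9.88 and 9.49 CPM in con-4c and 6.70, 6.19 and 7.06 in si-2c, with no library above 0.505 in con-2c or 0.145 in si-4c. KLF9 was higher by 5.34 (SE 0.53, edgeR adjusted p 5.19e-07) in con-4c than in con-2c. SP1, a factor of many housekeeping promoters singled out after its values were seen, had 14.2 ± 2.54 CPM for con-4c, 8.39 ± 1.98 for si-2c, 4.38 ± 0.694 for si-4c and 3.33 ± 0.951 for con-2c (SD, n = 3).

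The rest of that family did not move together. KLF3 had 24.03 to 32.6 CPM as group means, KLF7 had 25.8 to 33.4 and SP3 had 28.6 to 38.95, none called in any comparison between 2 groups. KLF3 in con-4c against con-2c (edgeR adjusted p 0.00551), KLF7 for si-2c against con-2c (adjusted p 0.0345) and SP3 for si-4c against con-4c (adjusted p 0.00631) passed the p limit under the fold limit, and these genes were named after their values were seen. The median log2 fold change of the family was 0.71 in con-4c against con-2c, 0.49 with the gene at 0 in a group set to its bound and 2.18 with the filter at a mean of 10 CPM. The number called was 8 for si-2c against con-2c, all higher (10.7% of all genes), 7 for si-4c against con-4c, all lower (15.8% of all genes), and 6 for si-4c against si-2c, all lower (11.9% of all genes). In si-4c against con-2c edgeR and DESeq2 called none, and 5 had an unadjusted p below 0.05, while edgeR called 0.333% of all genes. For si-2c against con-4c the 3 called lower were KLF4, KLF10 and KLF17, beside 1.63% of all genes, and 1 was called with library totals, without replicate 1 of con-4c or without replicate 2 of si-2c.

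**Figure D4:**
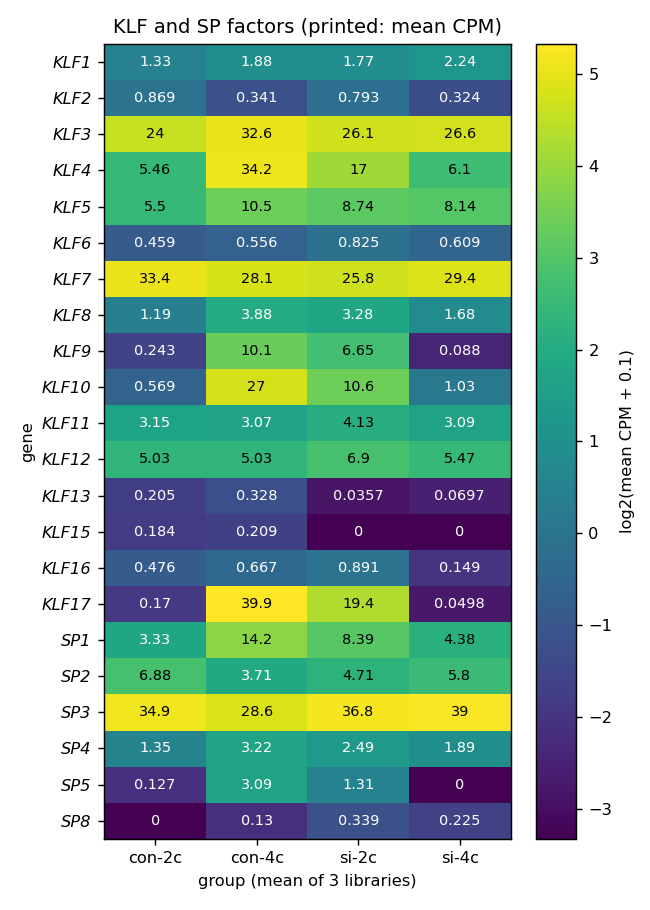
Mean CPM of 3 libraries (printed) of each KLF and SP factor in the table, in the 4 groups, coloured by log2 of the mean plus 0.1. KLF4, KLF9, KLF10, KLF17, SP1 and SP5 are highest in con-4c and next highest in si-2c, while the means of KLF3, KLF7 and SP3 stay within 24.03 to 38.95 CPM, and colours of different genes do not compare their abundance, since CPM are not per length.

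Among 37 other genes of the pluripotency network 22 were tested. Of these, 5 (22.7%) were called higher and none lower in con-4c against con-2c, beside 14.4% and 3.25% of all genes. The median log2 fold change of the 22 was 0.11, as over all genes. That median ran from 0.18 to 0.34 without 1 library and was 0.37 with library totals, 0.33 with the filter at a mean of 10 CPM and 0.05193 with no filter. The genes called were MYC, MYCN, NR5A2, GDF3 and TBX3. MYC, a growth-promoting factor and reprogramming gene, had 10.2, 8.95 and 11.5 CPM in the con-4c libraries, 5.85, 5.20 and 5.36 in those of si-2c, 0, 0.208 and 0.246 in those of con-2c, and 0, 0 and 0.269 in those of si-4c. All its con-4c libraries were above all si-2c libraries, and its log2 fold change was 6.03 (SE 0.61, edgeR adjusted p 6.18e-07) in con-4c against con-2c and -6.79 (SE 0.65, adjusted p 3.33e-07) for si-4c against con-4c. The other 4 were singled out after their values were seen. MYCN had no read in con-2c or si-4c, and 8.87 ± 2.77 CPM in con-4c and 5.36 ± 0.734 in si-2c (SD, n = 3). NR5A2, an orphan nuclear receptor of the early embryo, had group means of 6.01 CPM for con-4c, 3.04 for si-2c, 0.122 for con-2c and 0.167 for si-4c, and GDF3, a ligand of the TGF-beta family, had 5.48, 3.44, 0.653 and 0.552 in that order. OTX2 (-0.32), THAP11 (-0.43) and NR0B1 (-0.69) passed the p limit downward under the fold limit in con-4c against con-2c. LIN28A (0.31), HCFC1 (0.45) and ETV5 (0.55) passed it upward, also under the fold limit. These genes too were named after their values were seen. In si-2c against con-2c 5 were called higher (10.7% of all genes), and in si-4c 5 were called lower against con-4c (15.8% of all genes) and 5 against si-2c (11.9%).

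Of 32 genes of pluripotency signalling (LIF, FGF, activin and BMP pathways) 27 were tested, with 4 called higher and 1 lower for con-4c against con-2c, 18.5% in all, near the 14.4% of all genes called higher plus the 3.25% called lower. GSK3B, the kinase that marks beta-catenin for decay, had 24.5 ± 1.61 CPM for con-4c, 18.6 ± 1.07 for si-2c, 10.9 ± 1.69 for con-2c and 12.9 ± 1.28 for si-4c (SD, n = 3). BMP4, a ligand of the BMP pathway, had 23.9 ± 1.68, 16.7 ± 2.96, 9.96 ± 1.19 and 8.23 ± 0.991 CPM in the same order. Their log2 fold changes in con-4c against con-2c were 1.16 (SE 0.13, edgeR adjusted p 2.84e-06) for GSK3B and 1.26 (SE 0.15, adjusted p 5.02e-06) for BMP4. The others called higher were TYK2, a kinase of cytokine receptors, and FGFR3, an FGF receptor, both under 4 CPM in every group mean, and TGFBR1, a type I receptor for TGF-beta, was called lower. These 3 were named after their values were seen. IL6ST (-0.96), ACVR1B (-0.98), BMPR1A (-0.77), CTNNB1 (-0.36) and PTPN11 (-0.26) passed the p limit downward under the fold limit in con-4c against con-2c. JAK2 (0.60) passed it upward, also under the fold limit, and these genes too were named after their values were seen. The median log2 fold change of the 27 was -0.10 there, beside 0.11 over all genes, and 0.17 with library totals. In si-2c against con-2c edgeR called none of the 27 and DESeq2 called 1, and 10 had an unadjusted p below 0.05, with 10.7% of all genes called higher and 1.8% lower there. For si-4c against con-4c NODAL and TGFBR1 were called higher and TYK2, FGFR3 and BMP4 lower, beside 3.12% of all genes higher and 15.8% lower, with BMP4 at -1.54 (SE 0.15, edgeR adjusted p 5.64e-07).

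Of 25 regulators of genome activation 19 were tested, and 9 (47.4%) were called higher and none lower in con-4c against con-2c, beside 14.4% and 3.25% of all genes, with a median log2 fold change of 0.97. EIF1AX, a translation initiation factor used in the pig as a marker of genome activation, had 168, 182 and 172 CPM in the con-4c libraries, 93.9, 89.7 and 84.7 in those of si-2c, 35.2, 35.4 and 29.0 in those of con-2c, and 40.0, 38.6 and 41.7 in those of si-4c. Its group means stood in the order of DPPA2, and its log2 fold change was 2.39 (SE 0.09, edgeR adjusted p 3.10e-12) in con-4c against con-2c, 1.43 (SE 0.09, adjusted p 3.51e-09) for si-2c against con-2c and -2.12 (SE 0.09, adjusted p 1.33e-11) for si-4c against con-4c. NFYA, the DNA-binding subunit of a factor that opens promoters at CCAAT boxes, had 45.1 ± 3.31 CPM for con-4c, 21.4 ± 1.85 for si-2c, 9.15 ± 0.242 for con-2c and 12.3 ± 1.69 for si-4c (SD, n = 3). NFYA was higher by 2.30 (SE 0.13, edgeR adjusted p 2.97e-10) in con-4c than in con-2c and lower by -1.87 (SE 0.12, adjusted p 3.14e-09) in si-4c than in con-4c. Of this list 6 were called for si-2c against con-2c, all higher (10.7% of all genes), 10 for si-4c against con-4c and 6 for si-4c against si-2c, all lower (15.8% and 11.9% of all genes).

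The genes whose pattern was most like that of each member were sought among 5777 genes with a mean of at least 10 CPM in a group, by Pearson r of log2 CPM over the 12 libraries. By Spearman's rho most ranks differ: EEF1B2 was then at rank 86 and NDUFB11 at rank 152 for DPPA2, ANXA1 at rank 45 and RTN4 at rank 180 for NANOG, and ATF1 at rank 167 and ETF1 at rank 285 for KLF4. BECN2 stayed at rank 1 for KLF17. With a prior count of 0.5 ANXA1 and RTN4 were at ranks 2 and 4. As the libraries form 4 groups and share their scaling, r is given as a description. DPPA2 was nearest to EEF1B2, a translation elongation subunit, with r 0.994, then to CKS2, PTGES3, PIGH and NDUFB11 (0.993 to 0.991). NANOG was nearest to ANXA1 (0.997) and RTN4, and KLF17 to BECN2 (0.999), SI and MYC. KLF4 was nearest to SLIRP (0.991), ATF1 and ETF1. DPPA5 was nearest to SMC1B, a cohesin subunit of meiosis (0.986), THYN1 and DNMT1, the maintenance DNA methyltransferase. SOX2, SALL4 and KLF5 had looser partners: SYTL2 (0.966), SPRED2 and PCYT1A for SOX2, CCNC (0.892), KIF5C and TIMM50 for SALL4, and CCDC171 (0.926), ARID4A and TAF7 for KLF5.

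Among the members themselves r over the 12 libraries was highest for NANOG with KLF17 (0.981), DPPA2 with KLF4 (0.967) and NANOG with KLF4 (0.962). KLF4 with KLF17 had 0.932 and DPPA2 with NANOG 0.945. DPPA5 had a negative r with every other member, from -0.503 with KLF5 to -0.861 with NANOG.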

How the data were processed

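The deposited values were raw counts per Ensembl gene in 12 libraries, which the authors made and did not normalize. The submitters' processing notes name cutadapt 1.9, HISAT2 2.2.1, StringTie 2.1.6, DESeq2, edgeR and the build Sscrofa11.1. The study's methods give DESeq2 as the tool of its own differential test of these libraries. The roles of the other tools, the release of the annotation, whether strand was used and how shared reads were counted are not given in the sources used here, so values of genes with near-identical copies or overlapping neighbours are uncertain. Coordinates are those of RefSeq on Sscrofa11.1, matched by symbol for all 10 members, with NANOG at 2 places.

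The test was that of edgeR 4.0.16 (R 4.3.3): filterByExpr, TMM, and 1 quasi-likelihood model of the 4 group means over all 12 libraries, with Benjamini-Hochberg adjustment over 17995 genes. SE is the log2 fold change divided by the root of F. Counts of replicate libraries varied by 27.3% beyond counting error (the square root of the common dispersion, 0.0745), which with 3 libraries a group sets the precision. Alternatives were DESeq2 1.42.0, library totals, RLE factors, no filter, a filter at a mean of 10 CPM, only the groups compared, a replicate block, and each library left out in turn.

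All members, CCNB2, and from each other list the up to 2 genes higher and 2 lower with the smallest p in con-4c against con-2c at a mean of 10 CPM or more were named, and likeness was taken on log2 CPM (prior count 2). The members and lists were chosen with earlier results of these data known.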

Additional observations from a re-analysis of the deposited data

Results flagged for a closer look

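For 7 members the difference between the titles 4c and 2c was not the same in si as in con embryos, by the edgeR test of the interaction, which called 22.5% of all genes lower and 9.87% higher. DPPA2 had a log2 fold change of 2.22 in con and -1.14 in si embryos (interaction adjusted p 4.83e-11, edgeR). KLF4 had 2.65 and -1.48 (edgeR adjusted p 2.92e-10). NANOG went from 0 counts in con-2c to 63.3 CPM in con-4c and from 25.7 CPM in si-2c to 0.0199 in si-4c (edgeR adjusted p 6.91e-15). KLF17 went from 0.17 to 39.9 CPM and from 19.4 to 0.0498 CPM in the same order of groups (edgeR adjusted p 1.19e-12). SOX2 went from 0.0307 to 1.64 CPM and from 1.57 to 0.327 CPM (edgeR adjusted p 1.69e-05). KLF5 had log2 fold changes of 0.93 and -0.10 (edgeR adjusted p 0.00849), and its call was lost in 5 of the 12 fits without 1 library. DPPA5 had -0.68 and 0.75 (edgeR adjusted p 4.26e-07), the reverse of the others, and library totals took it under the fold limit at 0.77.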

How the results depend on the processing

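The number of members called was the same in most settings. It moved by more than 1.5 times in si-4c against con-2c, from 0 to 1 without replicate 3 of con-2c (0 to 1 over the fits without 1 library), and in si-2c against con-4c, from 3 to 1 with library totals. Signs turned for small differences only: without 1 library KLF5 in si-4c against si-2c ran from -0.25 to 0.0484, DPPA2 in si-4c against con-2c from -0.0705 to 0.19, SALL4 there from -0.0477 to 0.29 and SOX2 in si-2c against con-4c from -0.39 to 0.25, with 0.0506 under library totals. Over all member values in 7 comparisons, 626 of the fits without 1 library kept direction and call, 16 lost a call, 11 gained one and 7 turned sign, and in the other settings these numbers were 352, 4, 4 and 1. The cause was not tested. SOX2, SALL4 and PRDM14 have no value under the filter at 10 CPM.

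Replicate numbers did not pair the libraries, since same-numbered libraries of different groups deviated from their group means with r from -0.0496 to 0.029 over 18 pairs. With a replicate block the members called stayed at 5, 5, 5, 5, 0, 3 and 7 in the 6 comparisons and the interaction, and the genes called of all tested were 2936 in con-4c against con-2c in place of 3182. Depth limits what can be said of PRDM14, of SOX2 in con-2c and si-4c, and of NANOG and KLF17 where they had 0 to 11 counts.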

Other observations

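Factors of the first cell lineages to separate from the pluripotent cells were mostly low. Of 17 trophectoderm factors 12 were tested, and 6 were called higher and none lower in con-4c against con-2c, with 14.4% of all genes called higher and 3.25% lower. Their median log2 fold change was 2.52, and 1.73 with genes at 0 in a group set to their bound. Without 1 library the median ran from 1.42 (replicate 3 of con-4c) to 3.24 (replicate 1 of con-2c), with 4 to 6 called. With the filter at a mean of 10 CPM it was -0.03 and none was called by edgeR, since only TEAD1 and YAP1 of the 12 have a group above that level. The genes below were singled out after their values were seen. TFAP2C, an AP-2 factor of trophectoderm and germ cells, had mean levels of 6.37 CPM for con-4c, 3.37 for si-2c, 0.347 for con-2c and 0.912 for si-4c, and GATA3, a zinc-finger factor, had 2.87, 1.43, 0.274 and 0.0784 in that order. TFAP2C was higher in con-4c than in con-2c by a log2 fold change of 4.18 (edgeR adjusted p 2.11e-05), and relative to con-4c it was lower in si-4c by -2.80 (adjusted p 4.00e-04). EOMES, a T-box factor, had 4.66, 4.30, 1.57 and 1.37 CPM. YAP1, a coactivator of the Hippo pathway, went the other way with 144.6, 160.4, 257.4 and 241.6 CPM in that order, a log2 fold change of -0.83 in con-4c against con-2c (edgeR adjusted p 5.84e-06), under the fold limit. ELF5, an ETS factor, had 1.14, 1.66, 1.71 and 1.46 CPM and did not pass (-0.58, edgeR adjusted p 0.242).

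Of 12 primitive endoderm factors 9 were tested, and GATA6 and SOX7 were called higher and HNF4A lower in con-4c against con-2c, beside 14.4% and 3.25% of all genes. That count of 3 was 1 to 4 without 1 library and 1 with a replicate block. SOX7 had no read in con-2c, and means of 1.88 CPM for con-4c, 1.59 for si-2c and 0.0400 for si-4c. PDGFRA, a receptor of that lineage, had 4.68, 4.52, 2.75 and 1.898 CPM for con-4c, si-2c, con-2c and si-4c, and its difference between si-4c and con-4c was called (log2 fold change -1.30, edgeR adjusted p 0.00208).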
